A study of Homo sapiens with 6 samples.

Results

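Amino acids cross the plasma membrane through families of solute carrier (SLC) proteins, and the RNA of 7 such families was followed in AsPC-1 cells, a line established from a human pancreatic adenocarcinoma, after a block of glutamine use. The members were all rows of the deposited expression table whose symbol starts with SLC1A, SLC3A, SLC6A, SLC7A, SLC36A, SLC38A or SLC43A and a number. They were 65 of 26228 rows, in 7 families. RNA was sequenced in 3 libraries after DON, short for 6-Diazo-5-oxo-l-norleucine, and in 3 libraries after vehicle. Both groups were kept for 24 h in serum-free medium, so the vehicle cells were also without serum. DON resembles glutamine and inactivates many enzymes that take glutamine as substrate. The sources used here give neither its dose nor what the vehicle was. All libraries come from 1 cell line, and each column headed control was read as the vehicle library of the same number.

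SLC1A5 and several SLC38 carriers take up small neutral amino acids, glutamine among them, with sodium. SLC3A2 is a heavy chain that carries several SLC7 light chains to the cell surface, where each light chain exchanges amino acids across the membrane. When amino acids run short, the kinase GCN2 slows translation and favours that of the transcription factor ATF4, which raises transcription of many carriers and of amino acid synthesis genes. In pancreatic cancer cells, such carriers and the uptake of extracellular protein are known as sources of amino acids.

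Levels are FPKM, fragments scaled by transcript length and by library size, so they may be compared between genes. The lowest value in the table was 0.01 FPKM, which is taken here as its floor. Sums over all genes ranged from 525200 to 556950 FPKM per library. Absolute depth is unknown. Steps between the lowest values put the relative depth at 1.25 to 1.70 times that of vehicle replicate 1, the shallowest library. Between 24 and 30 of the 65 rows stood at the floor in a library, with the highest number in vehicle replicate 1. The epithelial marker EPCAM averaged 1058 ± 137 FPKM in DON cells and 1090.0 ± 109.5 FPKM in vehicle cells (SD, n = 3 each). All 5 fibroblast, all 4 endothelial and all 4 neural and glial markers stayed under 1 FPKM in every library, as did 5 of 6 acinar and islet markers. Among 5 leukocyte markers CD3E stood at the floor in all libraries and PTPRC averaged 0.0696 FPKM in DON and 0.110 FPKM in vehicle. The summed level, nearly all LYZ and CD68, was 102 to 152 FPKM in DON and 231 to 357 FPKM in vehicle. These 2 genes went opposite ways. LYZ fell and averaged 98.5 FPKM in DON and 250 FPKM in vehicle. CD68 averaged 32.8 FPKM in DON and 22.6 FPKM in vehicle and was not called. Of 8 tested epithelial markers 3 fell, among them MUC1 with 19.3 ± 0.831 FPKM in DON and 42.9 ± 12.4 FPKM in vehicle. KRT8 and KRT18, also among the 10 listed epithelial markers, were not tested because libraries were marked as failed. KRT8 had 1294 FPKM in DON replicate 1, against 3238 and 3087 FPKM in vehicle replicates 1 and 2. For KRT18 these values were 2531 FPKM against 3454 and 3669 FPKM. The part of these marker differences in the carrier results was not tested.

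Of the 65 rows, 22 had at least 1 FPKM in at least 3 libraries and were tested. In limma with Benjamini-Hochberg adjustment over all tested genes, 11 rose and 2 fell with DON at an adjusted p under 0.05. Over all 11471 tested genes 18.3% were called higher, 20.6% were called lower and 38.9% were called in either direction. The median log2 fold change was 0.48 for the 22 members and -0.01 for all tested genes. All 13 called members were amino acid or related carriers, and their DON and vehicle values did not overlap. Such separation was seen in 15 of the 22 tested members and in 51.5% of all tested genes. Of the 11 members that rose, 5 had a ratio of means of at least 2, namely SLC1A4, SLC6A9, SLC3A2, SLC7A11 and SLC7A5, and 4.02% of all tested genes were called higher at that size. SLC1A4 and SLC6A9 passed the level filter only through their DON libraries, since 0 vehicle libraries of SLC1A4 and 1 of SLC6A9 reached 1 FPKM. Both had to be higher to be tested. They are among the 11, the 5, the 13 called members, the 15 without overlap and the 22 behind the median. These counts and the median are therefore descriptions and lend no support to a rise of the families. Because RNA was taken from whole cultures, more expressing cells and more RNA per cell cannot be told apart. The labels do not say whether replicates came from separate cultures, and the spread behind every p-value may therefore be technical.

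**Figure D1:**
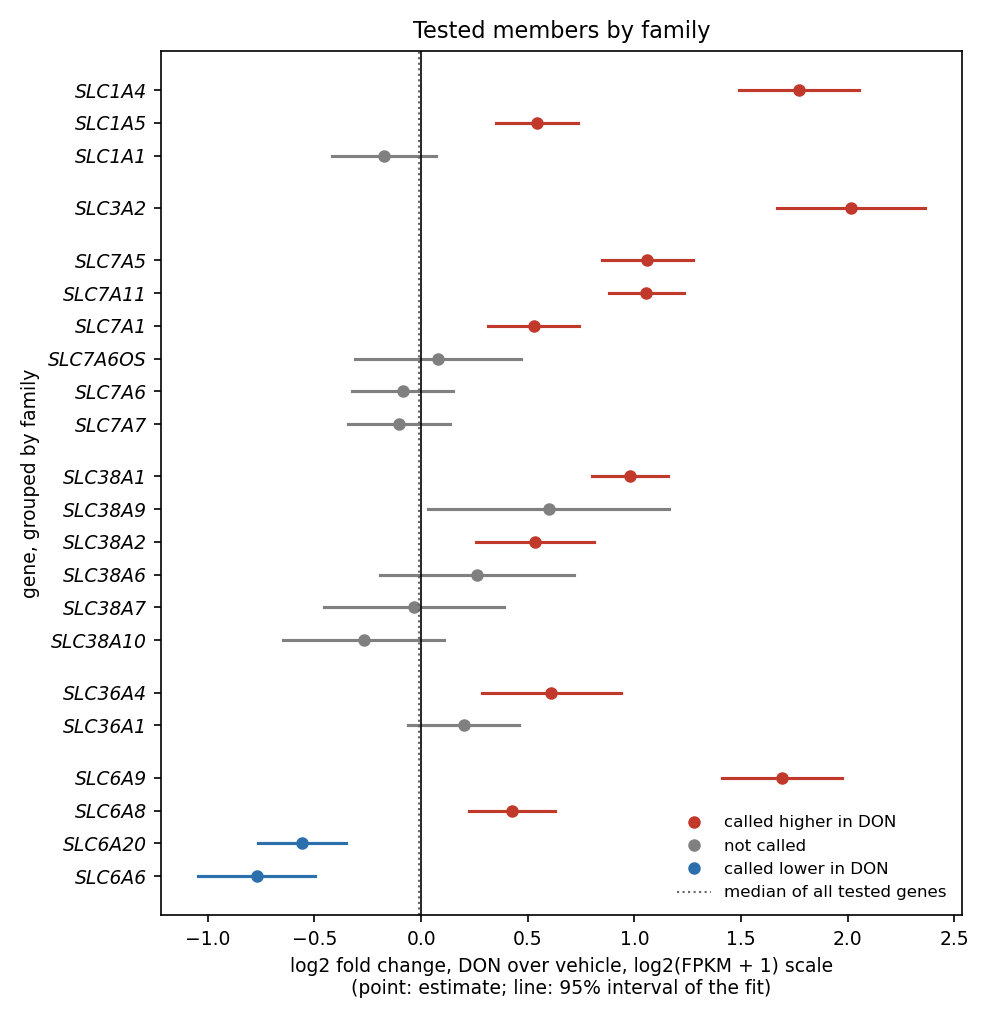
Log2 fold change of DON over vehicle on the log2(FPKM + 1) scale (horizontal axis) for the 22 tested members, grouped by family, with the estimate as a point and the 95% interval of the limma fit as a line. SLC3A2 lies farthest to the right at 2.02, SLC6A6 farthest to the left at -0.77, and the dotted line at -0.01 is the median of all tested genes.

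Promoters of the members were read because ATF4 with its partners is known to bind a composite element, the C/EBP-ATF response element. The rising members were grouped by their call, so their shared direction is given by that choice. RefSeq windows from 250 bases before to 50 bases after a gene's start (build GRCh38.p14) were found for 45 of the 65 rows. They were searched on both strands for TGATGNAA, where N is any base, which reads TTNCATCA on the opposite strand. The letters occurred in a window of 5 of the 10 rising members that had one. They occurred in none of the 9 tested members that were not called, in no window of SLC6A20, which fell, and in 1 of the 25 untested members, SLC1A3. The letters were in 3.62% of all windows in the RefSeq table and in 4.46% of all genes with a window. SLC1A4, with a match, and SLC6A9, without one, are among the 10 and passed the level filter only through their DON libraries. The counts of matches by call are therefore descriptions. A match is a stretch of letters and not a shown binding site. The 5 windows are printed because they carry that pattern, together with the window of ASNS, the asparagine synthetase gene. Capitals mark the match, and each sequence runs 5′ to 3′ along the gene.
SLC1A4, chr2:64989149-64989448, strand +: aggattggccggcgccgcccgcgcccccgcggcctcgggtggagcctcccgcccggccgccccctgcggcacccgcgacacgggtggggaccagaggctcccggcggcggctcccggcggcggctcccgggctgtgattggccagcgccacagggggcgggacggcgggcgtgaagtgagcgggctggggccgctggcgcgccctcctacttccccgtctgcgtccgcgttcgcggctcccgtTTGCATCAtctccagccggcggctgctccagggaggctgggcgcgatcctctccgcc
SLC1A5, chr19:46784765-46785064, strand -: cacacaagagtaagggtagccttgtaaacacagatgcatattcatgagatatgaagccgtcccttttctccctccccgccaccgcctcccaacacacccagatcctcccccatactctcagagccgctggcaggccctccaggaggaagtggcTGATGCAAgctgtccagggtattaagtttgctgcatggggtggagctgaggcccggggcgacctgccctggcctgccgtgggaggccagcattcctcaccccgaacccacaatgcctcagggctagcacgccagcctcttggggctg
SLC3A2, chr11:62881449-62881748, strand +: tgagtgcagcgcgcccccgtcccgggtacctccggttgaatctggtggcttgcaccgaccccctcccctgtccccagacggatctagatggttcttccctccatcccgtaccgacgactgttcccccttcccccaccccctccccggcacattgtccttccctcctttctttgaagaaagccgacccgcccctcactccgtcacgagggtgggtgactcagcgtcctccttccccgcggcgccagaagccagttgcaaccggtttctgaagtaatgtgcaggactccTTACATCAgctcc
SLC7A1, chr13:29595639-29595938, strand -: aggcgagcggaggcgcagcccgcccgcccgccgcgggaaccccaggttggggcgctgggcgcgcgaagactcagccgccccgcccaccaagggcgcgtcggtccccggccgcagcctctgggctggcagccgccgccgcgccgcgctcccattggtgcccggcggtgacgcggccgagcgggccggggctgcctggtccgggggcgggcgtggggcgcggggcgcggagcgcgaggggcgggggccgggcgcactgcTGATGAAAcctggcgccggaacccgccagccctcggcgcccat
SLC38A1, chr12:46266467-46266766, strand -: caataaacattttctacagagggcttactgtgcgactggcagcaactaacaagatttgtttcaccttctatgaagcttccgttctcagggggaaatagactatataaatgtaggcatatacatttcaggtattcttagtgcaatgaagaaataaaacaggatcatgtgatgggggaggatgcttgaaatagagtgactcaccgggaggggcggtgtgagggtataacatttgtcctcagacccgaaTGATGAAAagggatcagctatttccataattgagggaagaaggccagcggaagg
ASNS, chr7:97872359-97872658, strand -: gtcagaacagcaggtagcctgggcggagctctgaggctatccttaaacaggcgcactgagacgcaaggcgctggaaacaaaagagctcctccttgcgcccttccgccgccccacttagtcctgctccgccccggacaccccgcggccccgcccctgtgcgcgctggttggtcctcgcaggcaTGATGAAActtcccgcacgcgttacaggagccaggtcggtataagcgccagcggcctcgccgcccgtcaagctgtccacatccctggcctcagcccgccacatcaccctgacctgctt
Counted from the start base, the first letter of the match lay 7 bases before it in SLC1A4, 97 in SLC1A5, 4 in SLC38A1 and 68 in ASNS, and 7 bases after it in SLC7A1 and 37 in SLC3A2. SLC1A4 and SLC1A5 matched as TGATGCAA, SLC7A1, SLC38A1 and ASNS as TGATGAAA, and SLC3A2 as TGATGTAA. In SLC1A4 and SLC3A2 the match was on the opposite strand, so the capitals there show its reverse complement. SLC1A4 and SLC38A1 each have 2 windows in the table, SLC1A5 and SLC3A2 each have 3, and the letters were in 1 window of each. No match was found in these windows of SLC6A8, SLC6A9, SLC7A5, SLC36A4 or SLC38A2, which also rose, and these windows do not cover introns or distant elements.

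The heavy chain SLC3A2 rose, with a larger estimate than any of its light chains, a difference that was not tested. Its level was 564, 431 and 407 FPKM in DON replicates 1 to 3, against 123, 118 and 100.5 FPKM in vehicle replicates 1 to 3. DON replicate 1 stood above the other two, and all 3 lay far above the vehicle libraries. The mean was 467 ± 84.5 FPKM in DON and 114 ± 11.98 FPKM in vehicle, a ratio of 4.10 (log2 fold change 2.02 ± 0.15 SE, limma adjusted p = 0.000143). By mean level SLC3A2 was the most abundant of the 65 rows in DON and came after SLC38A2 in vehicle, although SLC38A2 exceeded it in DON replicate 3. SLC3A1, the heavy chain of the cystine carrier of kidney and gut, stayed between 0.01 and 0.224 FPKM in all libraries and was not tested.

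Among the light chains of SLC3A2, SLC7A5 and SLC7A11 rose and SLC7A7 and SLC7A6 were not called. SLC7A5, which with SLC3A2 brings in large neutral amino acids in exchange for glutamine, had 69.0, 64.5 and 67.4 FPKM in DON and 34.9, 30.1 and 30.0 FPKM in vehicle (ratio 2.12, log2 fold change 1.06 ± 0.09 SE, limma adjusted p = 0.000259). The groups lay far apart compared with their spread. SLC7A11, which exchanges cystine for glutamate and so feeds glutathione synthesis, had 57.5, 59.4 and 61.5 FPKM in DON and 27.2, 28.6 and 28.4 FPKM in vehicle (ratio 2.12, log2 fold change 1.06 ± 0.07 SE, limma adjusted p = 0.000136). The rises of these exchangers were alike in size, and their difference was not tested.

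SLC7A7 and SLC7A6 export cationic amino acids in exchange for neutral ones. SLC7A7 had 53.1, 47.8 and 45.5 FPKM in DON and 57.9, 49.7 and 49.8 FPKM in vehicle, with overlapping groups (log2 fold change -0.10, 95% interval -0.34 to 0.14, limma adjusted p = 0.452). SLC7A6 had 6.21, 6.13 and 6.83 FPKM in DON and 7.25, 6.16 and 7.16 FPKM in vehicle, also overlapping (log2 fold change -0.09, 95% interval -0.32 to 0.15, limma adjusted p = 0.526). SLC7A8 was at the floor in 5 of 6 libraries, with 0.0384 FPKM in DON replicate 3, and SLC7A10 was at the floor in all 6.

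The make-up of the light chain RNA was not the same in the groups. SLC7A7 made up 28.6%, 26.9% and 25.1% of the summed light chain FPKM in DON, against 45.5%, 43.4% and 43.2% in vehicle. SLC7A5 made up 36.3% to 37.2% in DON and 26.0% to 27.4% in vehicle, and SLC7A11 made up 30.9% to 33.9% in DON and 21.4% to 24.9% in vehicle. The most abundant light chain was SLC7A5 in every DON library and SLC7A7 in every vehicle library. The ratio of SLC3A2 to its summed light chains was 3.03, 2.42 and 2.24 in DON and 0.970, 1.03 and 0.870 in vehicle. These shares and ratios follow from the values of the single genes and were not tested. They concern RNA per length, not protein at the membrane.

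**Figure D2:**
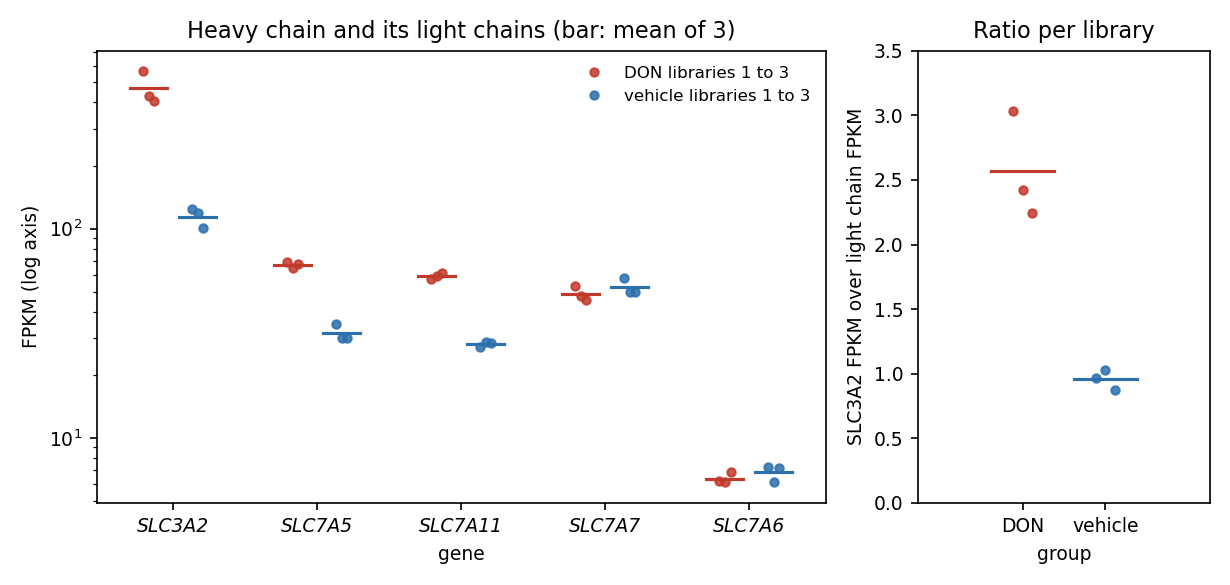
Left, FPKM (log axis) of SLC3A2 and of its 4 tested light chains in each library, with DON libraries in red on the left and vehicle libraries in blue on the right of each pair and the mean of 3 as a bar. Right, the ratio of SLC3A2 to its summed light chains in each library, where the lowest DON value of 2.24 lies above the highest vehicle value of 1.03.

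SLC7A1, the main carrier for arginine and lysine in dividing cells, rose with DON. It had 17.5, 16.9 and 17.5 FPKM in DON and 12.6, 10.6 and 11.9 FPKM in vehicle (ratio 1.48, log2 fold change 0.53 ± 0.09 SE, limma adjusted p = 0.00456). The DON values lay within a narrow band above all vehicle values. The other 4 rows of the cationic branch, SLC7A2, SLC7A3, SLC7A4 and SLC7A14, did not exceed 0.0588 FPKM in any library. SLC7A9, the light chain that pairs with SLC3A1, had 0.230, 0.577 and 0.546 FPKM in DON and 0.411, 0.674 and 1.17 FPKM in vehicle, with overlap, and SLC7A13 was at the floor throughout.

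In the SLC1 family the neutral amino acid carriers SLC1A5 and SLC1A4 were called higher and the glutamate carrier SLC1A1 was not called. SLC1A4 passed the level filter only through its DON libraries and had to be higher to be tested, so this contrast is a description. SLC1A5, the carrier best known for glutamine uptake in tumour cells, had 149, 143.5 and 137 FPKM in DON and 95.5, 104 and 95.01 FPKM in vehicle (ratio 1.46, log2 fold change 0.54 ± 0.08 SE, limma adjusted p = 0.00245). SLC1A4, which favours serine and alanine, had 3.07, 3.34 and 3.22 FPKM in DON and 0.135, 0.255 and 0.312 FPKM in vehicle. Its ratio of means was 13.7, the largest among the tested members, from a vehicle mean of 0.234 FPKM, which is under the 1 FPKM of the level filter. On the log2(FPKM + 1) scale it was 1.77 ± 0.12 SE (limma adjusted p = 0.000116), and with a pseudocount of 0.1 it was 3.35 (limma adjusted p = 0.00032). Even so, SLC1A5 remained the far more abundant of the pair, at 143 ± 6.39 FPKM in DON against 3.21 ± 0.137 FPKM for SLC1A4.

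SLC1A1 brings in glutamate, aspartate and cysteine. It had 5.69, 5.19 and 5.08 FPKM in DON and 6.83, 5.82 and 5.77 FPKM in vehicle (log2 fold change -0.17, 95% interval -0.42 to 0.07, limma adjusted p = 0.219). The values did not overlap, but their gap was small beside the spread. SLC1A7, a glutamate carrier best known from retina, had 0.201, 0.154 and 0.0707 FPKM in DON and 0.177, 0.732 and 0.731 FPKM in vehicle and was not tested. The brain glutamate carriers SLC1A2, SLC1A3 and SLC1A6 did not exceed 0.132 FPKM in any library.

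Among the 65 rows, SLC38A2 had the highest level in vehicle, and in the SLC38 family the plasma membrane members SLC38A1 and SLC38A2 rose. SLC38A1, a sodium-coupled carrier of glutamine, had 147, 153 and 143 FPKM in DON and 75.3, 71.9 and 76.1 FPKM in vehicle (ratio 1.98, log2 fold change 0.98 ± 0.08 SE, limma adjusted p = 0.000187). SLC38A2, its close relative that is known to respond to amino acid lack, had 367, 404 and 426 FPKM in DON and 252, 259 and 318 FPKM in vehicle (ratio 1.44, log2 fold change 0.53 ± 0.12 SE, limma adjusted p = 0.0117). The DON and vehicle values of SLC38A2 lay closer together, and its call was lost without DON replicate 2 (limma adjusted p = 0.0506) and without the level filter (0.0602). SLC38A1 thus stood at 0.3999, 0.380 and 0.335 times the level of SLC38A2 in DON, and at 0.298, 0.278 and 0.239 times in vehicle.

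The intracellular and less studied SLC38 members were not called. SLC38A9, the lysosomal carrier that senses arginine for the growth kinase complex mTORC1, had 8.05, 8.499 and 11.6 FPKM in DON and 3.92, 5.98 and 8.13 FPKM in vehicle (log2 fold change 0.60, 95% interval 0.03 to 1.16, limma adjusted p = 0.0881), with slight overlap. Its value depended on single libraries. Without vehicle replicate 3 the log2 fold change was 0.81 and passed (limma adjusted p = 0.0258), and without vehicle replicate 1 it was 0.36 and did not (0.206). SLC38A7, which exports glutamine from lysosomes, had 2.33, 3.21 and 4.22 FPKM in DON and 2.92, 3.22 and 3.74 FPKM in vehicle (log2 fold change -0.03, 95% interval -0.46 to 0.39, limma adjusted p = 0.898). Its replicates spread as widely as the groups. SLC38A6 had 6.36, 10.2 and 10.9 FPKM in DON and 6.804, 6.82 and 8.29 FPKM in vehicle (log2 fold change 0.26, 95% interval -0.19 to 0.72, limma adjusted p = 0.318). Without DON replicate 1 its log2 fold change was 0.48 and passed (limma adjusted p = 0.0219), without DON replicate 2 it was 0.18 (0.604) and without DON replicate 3 it was 0.13 (0.657). SLC38A10 had 33.6, 24.4 and 25.3 FPKM in DON and 35.9, 37.0 and 27.8 FPKM in vehicle (log2 fold change -0.27, 95% interval -0.65 to 0.11, limma adjusted p = 0.223).

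SLC38A5, another glutamine carrier, came closest to the filter among the untested SLC38 rows. It had 0.571, 0.759 and 0.664 FPKM in DON and 1.17, 1.16 and 0.907 FPKM in vehicle, without overlap, and fell below the level filter. SLC38A11 had 0.552 FPKM in both vehicle replicates 2 and 3 but stood at the floor in vehicle replicate 1 and in DON replicate 2. SLC38A3, SLC38A4 and SLC38A8 did not exceed 0.132 FPKM in any library.

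Both expressed members of the SLC36 family, known as proton-assisted amino acid transporters, had all DON values above all vehicle values. Groups were separate, in either direction, in 51.5% of all tested genes. SLC36A4, a high-affinity carrier of proline and tryptophan, had 8.56, 11.4 and 11.6 FPKM in DON and 6.47, 5.81 and 7.21 FPKM in vehicle (ratio 1.62, log2 fold change 0.61 ± 0.14 SE, limma adjusted p = 0.0130). This call was lost without DON replicate 2 (limma adjusted p = 0.0589) and without the level filter (0.0687). The lysosomal carrier SLC36A1 had 1.85, 1.89 and 1.998 FPKM in DON and 1.67, 1.59 and 1.37 FPKM in vehicle (log2 fold change 0.20, 95% interval -0.06 to 0.46, limma adjusted p = 0.192) and was not called. SLC36A2 and SLC36A3 were at the floor in all libraries.

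The SLC6 family, sodium- and chloride-coupled carriers of amino acids, amines and osmolytes, moved both ways. All 4 tested members were called, with SLC6A9 and SLC6A8 higher and SLC6A6 and SLC6A20 lower, beside 38.9% of all tested genes called. SLC6A9 passed the level filter only through its DON libraries and had to be higher to be tested, so this count is a description. SLC6A9, a glycine carrier, had 5.13, 4.57 and 4.99 FPKM in DON and 0.674, 1.03 and 0.784 FPKM in vehicle (ratio 5.90, log2 fold change 1.69 ± 0.12 SE, limma adjusted p = 0.000135). SLC6A8, the creatine carrier, had 59.0, 55.5 and 55.5 FPKM in DON and 45.4, 40.2 and 40.1 FPKM in vehicle (ratio 1.35, log2 fold change 0.43 ± 0.08 SE, limma adjusted p = 0.00787). A correction for GC content put the log2 fold change of SLC6A8 at 0.68 (limma adjusted p = 0.00147).

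SLC6A6, which takes up taurine, an osmolyte, had 2.40, 2.65 and 3.28 FPKM in DON and 5.35, 5.28 and 5.62 FPKM in vehicle (log2 fold change -0.77 ± 0.12 SE, limma adjusted p = 0.00263). The vehicle mean was 1.95 times the DON mean. SLC6A20, a carrier of proline and other imino acids, had 30.1, 26.2 and 26.2 FPKM in DON and 41.4, 39.5 and 41.7 FPKM in vehicle (log2 fold change -0.56 ± 0.09 SE, limma adjusted p = 0.00302). These were the only members called lower. Below the filter, the betaine carrier SLC6A12 had 0.132, 0.0510 and 0.0730 FPKM in DON and 0.435, 0.230 and 0.478 FPKM in vehicle, without overlap, and the proline carrier SLC6A7 had 0.0570 to 0.165 FPKM in DON and 0.119 to 0.283 FPKM in vehicle.

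**Figure D3:**
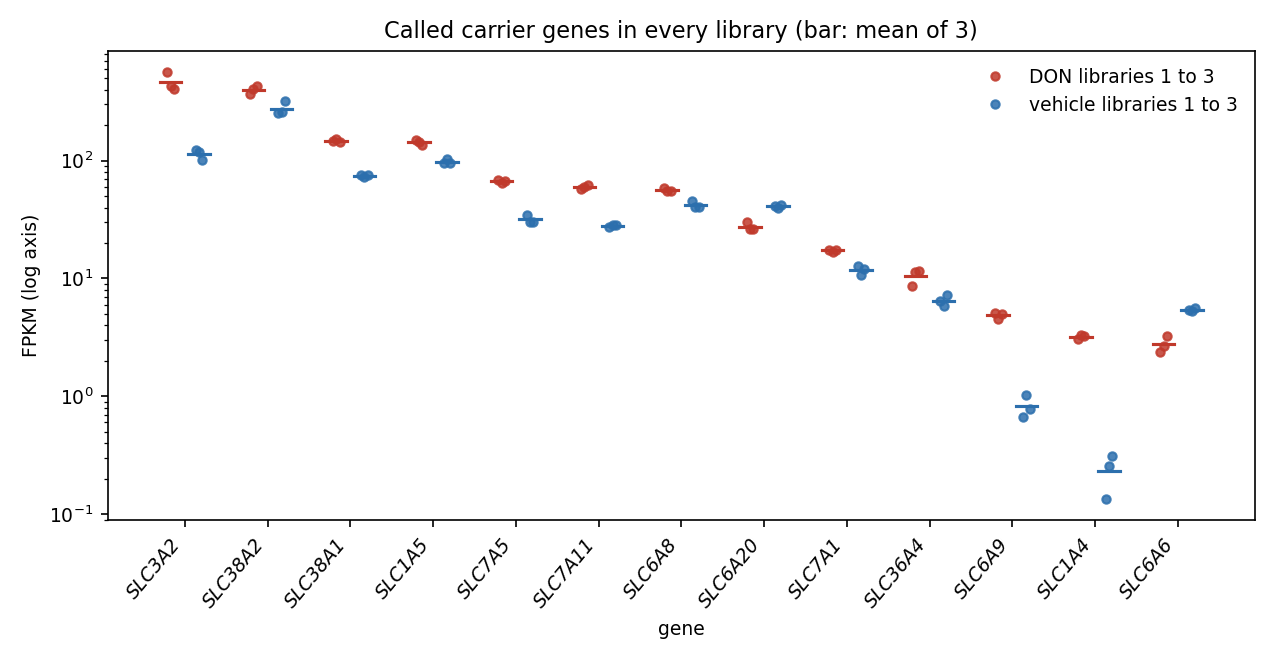
FPKM (log axis) of the 13 called members in each library, ordered by DON mean, with DON libraries in red left of vehicle libraries in blue and the mean of 3 as a bar. SLC6A20 and SLC6A6 have lower values in DON, the other 11 have higher values, and no pair of groups overlaps.

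The SLC43 family, which includes carriers of large neutral amino acids, had no tested member. Of the 3, SLC43A2 came closest to the filter, with 0.689, 0.706 and 0.819 FPKM in DON and 0.825, 1.27 and 0.860 FPKM in vehicle. SLC43A3, known as a carrier of purine bases, varied within both groups, from 0.0210 to 0.509 FPKM in DON and from 0.0438 to 0.794 FPKM in vehicle. SLC43A1 stayed at or under 0.0677 FPKM.

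In all, 43 of the 65 rows were below the filter. Of these, 13 stood at 0.01 FPKM in all 6 libraries, 22 did so in some libraries and 8 never did. Of the 13, 12 were carrier genes, namely SLC6A3, SLC6A5, SLC6A11, SLC6A14, SLC6A17, SLC6A18, SLC7A4, SLC7A10, SLC7A13, SLC7A14, SLC36A2 and SLC36A3. For comparison, 31.7% of all rows with 6 values stood at the floor throughout. Several of these rows are nerve terminal carriers, such as the dopamine carrier SLC6A3 and the glycine carrier SLC6A5. A gene at the floor is listed at 0.01, which does not show that its RNA was absent. In 11 further rows the value exceeded the floor in a lone library, among them the serotonin carrier SLC6A4 with 0.0169 FPKM in DON replicate 3 and SLC38A4 with 0.132 FPKM in vehicle replicate 1. The amino acid carrier SLC6A15 had 0.0261 to 0.0587 FPKM in DON and 0.01 to 0.0195 FPKM in vehicle, and SLC6A19, the main neutral amino acid carrier of gut and kidney, did not exceed 0.145 FPKM in any library. SLC6A2, SLC6A13 and SLC6A16 did not exceed 0.0530 FPKM.

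Of the rows that match by name, 6 are not carrier genes. SLC7A6OS lies on the strand opposite SLC7A6, with exons that overlap in the GENCODE annotation, and codes for another protein. It had 11.4, 11.3 and 8.42 FPKM in DON and 10.8, 10.8 and 7.80 FPKM in vehicle (log2 fold change 0.08, 95% interval -0.31 to 0.47, limma adjusted p = 0.732). How strand was used in counting is not given, so the values of SLC7A6 and SLC7A6OS may share reads. SLC7A5P1 and SLC7A5P2 are pseudogene copies of SLC7A5, which leaves the split of reads among them uncertain. SLC7A5P1 ranged from 0.01 to 1.77 FPKM in DON and from 0.329 to 1.16 FPKM in vehicle, far below SLC7A5. SLC7A5P2 did not exceed 1.22 FPKM, and SLC6A10P, a copy of SLC6A8, was above the floor only in vehicle replicate 1, at 0.0187 FPKM. Exons of SLC1A5, SLC6A6, SLC6A8, SLC6A9, SLC7A5, SLC7A11, SLC38A6 and SLC38A10 also overlap a gene on the opposite strand in that annotation, with the same limit. The antisense row SLC7A11-AS1 did not exceed 0.0270 FPKM.

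**Figure D4:**
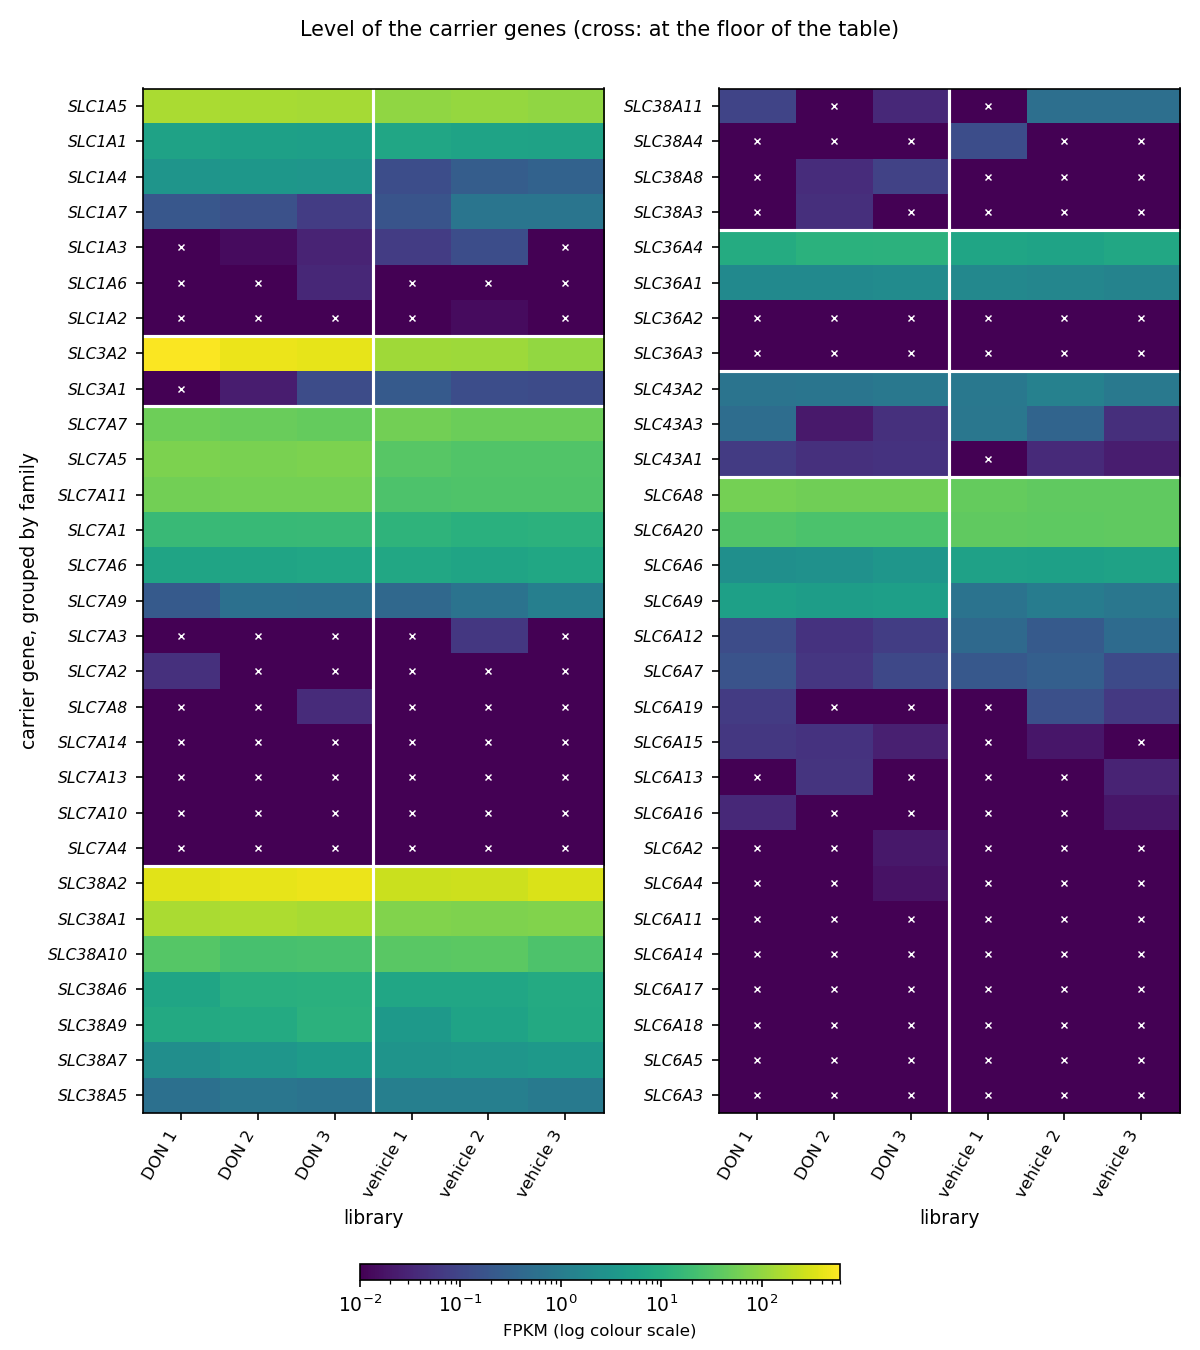
Level of the carrier genes in the 6 libraries as colour (FPKM on a log scale), grouped by family, with DON libraries left of vehicle libraries and a white cross where a value is at the floor of 0.01 FPKM. The 12 genes with 6 crosses stand at the floor in every library, most of them in the SLC6 and SLC7 families.

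By family, the summed RNA was higher in DON for 5 families. The SLC38 rows summed to 564, 604 and 622 FPKM in DON and 379, 385 and 443 FPKM in vehicle. The SLC3 rows, nearly all of it SLC3A2, summed to 564, 431 and 407 FPKM in DON and 124, 118 and 100.6 FPKM in vehicle. The SLC7 rows summed to 218, 207 and 208 FPKM in DON and 153, 139 and 138 FPKM in vehicle, and the SLC1 rows to 158, 152 and 145 FPKM in DON and 103, 110.5 and 102 FPKM in vehicle. In each of these families no DON library fell to the vehicle range. The SLC36 rows summed to 10.4 to 13.6 FPKM in DON and 7.42 to 8.60 FPKM in vehicle. For the SLC6 family the sums overlapped, at 89.3 to 97.1 FPKM in DON and 86.8 to 93.7 FPKM in vehicle. The SLC43 sums overlapped too, at 0.774 to 1.27 FPKM in DON and 0.928 to 1.65 FPKM in vehicle. Family sums were not tested.

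The 59 carrier rows together summed to 1599, 1486 and 1478 FPKM in DON and 849, 836 and 873 FPKM in vehicle. Within that sum the share of SLC3A2 was 35.3%, 29.01% and 27.5% in DON and 14.5%, 14.1% and 11.5% in vehicle. The share of SLC38A2 was 22.9%, 27.2% and 28.8% in DON and 29.7%, 30.9% and 36.4% in vehicle, although its level was higher in DON. SLC1A5 showed the same pattern, with 9.25% to 9.65% in DON and 10.9% to 12.4% in vehicle.

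**Figure D5:**
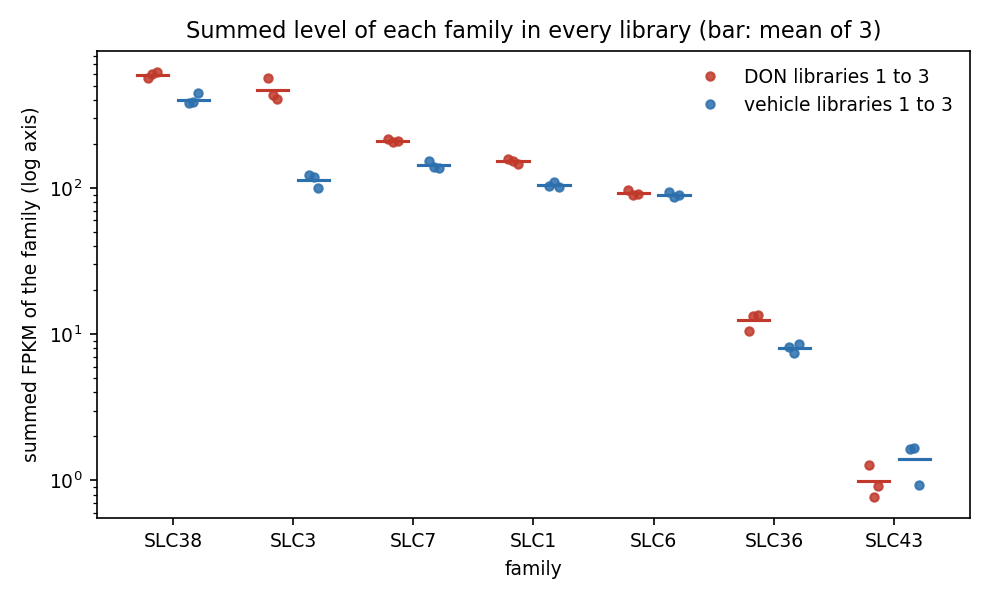
Summed FPKM (log axis) of each family in each library, ordered by DON mean, with DON libraries in red left of vehicle libraries in blue and the mean of 3 as a bar. The SLC38, SLC3, SLC7, SLC1 and SLC36 sums are separate, and the SLC6 and SLC43 sums overlap.

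Genes tied to these carriers were read from related lists. In a list of 24 genes of the ATF4 response, 17 of 20 tested genes rose and 0 fell (median log2 fold change 1.42), against 18.3% called higher among all tested genes. The list was chosen with earlier results of these data known, so this count is a description and not an independent comparison. ATF4 itself averaged 381.5 ± 39.1 FPKM in DON and 190.5 ± 11.4 FPKM in vehicle (log2 fold change 0.99, limma adjusted p = 0.000557). ASNS, whose promoter window is among those printed, averaged 309.7 ± 31.8 FPKM in DON and 36.4 ± 3.35 FPKM in vehicle (log2 fold change 3.05, limma adjusted p = 1.61e-05). The stress response genes DDIT3 and TRIB3 averaged 209 ± 26.5 FPKM and 206 ± 37.0 FPKM in DON, against 34.2 ± 5.89 FPKM and 44.2 ± 5.78 FPKM in vehicle (limma adjusted p = 8.41e-05 for DDIT3 and 0.000129 for TRIB3). CHAC1, which breaks down glutathione inside the cell, averaged 12.3 ± 1.52 FPKM in DON and 3.41 ± 0.604 FPKM in vehicle (limma adjusted p = 0.000281). Of the 22 genes in this list with a RefSeq window, 6 (27.3%) held the letters TGATGNAA, ASNS and CHAC1 among them. Among all genes with a window the share was 4.46%. The list was drawn up as genes of the ATF4 response, so this count is a description too.

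A list headed other amino acid and peptide carriers, outside these 7 families, was read for comparison. It is not limited to carriers of amino acids or peptides. Of 10 tested genes 1 rose and 0 fell (median log2 fold change 0.23), beside 18.3% called higher and 20.6% called lower among all tested genes. The gene that rose, SLC10A7, belongs to a bile acid carrier family and is not known as an amino acid carrier. SLC10A7 averaged 2.22 ± 0.768 FPKM in DON and 0.943 ± 0.199 FPKM in vehicle (log2 fold change 0.71, limma adjusted p = 0.0295).

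Libraries within each group also differed along GC content. The second principal component parted DON 1, vehicle 1 and vehicle 2 from DON 2, DON 3 and vehicle 3. Over the 22 tested members, the log2 level of DON 1 minus the mean of DON 2 and DON 3 had a Spearman correlation of 0.525 with the GC content of the transcript. For vehicle 3 minus the mean of vehicle 1 and vehicle 2 the correlation was -0.560. These are descriptions over genes that share libraries. The GC-rich SLC3A2 (57.4% GC) was highest in DON 1 and lowest in vehicle 3, whereas the GC-poor SLC38A2 (38.1%) was lowest in DON 1 and highest in vehicle 3. Not every member followed its GC content. SLC38A7, with 57.5% GC, was also lowest in DON 1 and highest in vehicle 3. After correction for GC content, the estimates on the log2 scale were 2.16 for SLC3A2 and 0.41 for SLC38A2, and both calls held.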

How the data were processed

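Gene expression was measured by RNA-seq in 6 libraries. The authors deposited FPKM values. STAR and hg19 are named in the submitters' processing notes. The sources used here do not give the program that made FPKM, its annotation or its use of strand. Members and gene lists were chosen with earlier results of these data known. Named genes were all tested members, members below the filter by family, up to 4 called genes of each related carrier list by size of change, and ATF4, ASNS, DDIT3, TRIB3 and CHAC1. Rows where a library was marked as failed (41 rows, no member) were left out. Testing required 1 FPKM or more in 3 or more libraries and used values of log2(FPKM + 1) with limma 3.58.1 in R 4.3.3 (empirical Bayes with a mean trend, two-sided, Benjamini-Hochberg adjustment over 11471 genes, threshold 0.05), after the fit was tested on simulated data. Fold changes on this scale understate those of low genes, and ratios are of mean FPKM. GC content came from GENCODE release 29 and promoter windows from RefSeq GRCh38.p14. In all, 15 alternatives were run. Replicate numbers were not used as pairs. The values of 2 matching rows are not reported here.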

Additional observations from a re-analysis of the deposited data

How the results depend on the processing

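Of 326 member values under the 15 alternatives, 313 kept their direction and their side of the threshold, and 9 of the 13 called members were called under all 15. SLC36A4 and SLC38A2 lost their call without DON replicate 2 and without the level filter, and SLC1A4 and SLC6A9 were not tested with a filter of 5 FPKM. The count of members called higher was 11, and it was 9 without the level filter, 9 with a filter of 5 FPKM and 9 to 12 when a library was left out. The count called lower was 2 throughout. Calls over all genes numbered 4459, against 2942 without the filter and 2697 to 4656 when a library was left out, the lowest without DON replicate 2, and 6031 with a term for the split of libraries along the second principal component. Whether replicate numbers pair the samples is not given by the labels. Deviations of same-numbered libraries correlated at 0.254, -0.184 and 0.502 across genes. DON 1 correlated best with vehicle 2 (0.39), and DON 3 correlated best with vehicle 3 (0.502). Libraries also differ along the second principal component, so these correlations cannot decide whether samples were paired. With the replicate block 12 members were called higher and 5414 genes were called in all, the added member being SLC38A9 (adjusted p = 0.00934). Small log2 fold changes that were not called turned in sign: SLC38A10 to 0.036 with the GC correction, SLC38A7 to 0.046 with quantile scaling, 0.11 with the GC correction and a range of -0.19 to 0.13 when a library was left out, and SLC7A6OS to a range of -0.063 to 0.21 when a library was left out. The cause was not tested. Absolute depth is unknown, which limits what can be said of genes at the floor.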

Other observations

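Of 18 tested partners and regulators of carriers, 3 rose and 4 fell (median log2 fold change 0.08, against -0.01 for all tested genes). With 18.3% of all tested genes called higher and 20.6% called lower, these counts are near the background and are not a result about the list; the values of its called genes follow as descriptions. ARRDC3 and TXNIP, arrestin-like proteins that take membrane proteins into the cell, averaged 32.1 ± 3.62 and 258 ± 10.1 FPKM in DON, against 12.45 ± 0.0694 and 135 ± 9.71 FPKM in vehicle (limma adjusted p = 0.0002 for ARRDC3 and 0.000361 for TXNIP). The kinase SGK3 averaged 18.6 ± 1.35 FPKM in DON and 8.63 ± 0.782 FPKM in vehicle, while its relative SGK2 averaged 5.86 ± 0.528 FPKM in DON and 12.2 ± 0.766 FPKM in vehicle (limma adjusted p = 0.000454 for SGK3 and 0.000578 for SGK2). The other 3 genes that fell were named after their values were seen. BSG, a chaperone of monocarboxylate carriers, averaged 202 ± 7.22 FPKM in DON and 268 ± 29.1 FPKM in vehicle (limma adjusted p = 0.0180), and NHERF1, a scaffold under the membrane listed as SLC9A3R1, averaged 51.4 ± 6.54 FPKM in DON and 82.4 ± 7.45 FPKM in vehicle (limma adjusted p = 0.00472). CD44, a cell surface glycoprotein, averaged 50.8 ± 5.43 FPKM in DON and 66.4 ± 7.68 FPKM in vehicle (limma adjusted p = 0.0428).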
